A study of Caenorhabditis elegans with 2 samples.

Results

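The germline fate and meiosis genes are 38 protein-coding genes of Caenorhabditis elegans, taken by name from a list and found, all 38, in the WBcel235 annotation, which holds 19973 protein-coding genes on the nuclear chromosomes. They comprise 19 regulators of RNA, 2 signalling genes, 6 genes of the P granules and 11 genes that act on meiotic chromosomes. Binding of DAF-16, the worm's single FOXO transcription factor, was measured around them by chromatin immunoprecipitation and sequencing in whole animals of the last larval stage, L4, pooled from both sexes, with 2 biological replicates. All larvae came from strain XE1464, which carries the unc-119(ed3) III allele and a stable insertion for DAF-16 with GFP and FLAG at its C-terminus. The labels give neither the promoter of the insertion nor the cells in which the tagged protein was made, so its presence in germ cells is not recorded. The series has no mutant, treated or untagged group. In whole larvae, binding in few cells and weak binding in many cells cannot be told apart.

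Germ cells of the worm are kept as stem cells by Notch signalling from the distal tip of the gonad, and a network of RNA-binding proteins decides when they leave mitosis and whether they become sperm or oocytes. Control at the level of mRNA, rather than of the promoter, is the best known mode of regulation in this tissue. P granules are assemblies of RNA and protein around germ cell nuclei, and in meiosis chromosomes pair, are joined by the synaptonemal complex and exchange DNA through programmed breaks. Insulin-like signalling, which restrains DAF-16, is known to promote proliferation of larval germ cells.

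DAF-16 was found in the promoter window of 6 of the 38 genes, gld-2, gld-3, fbf-2, nos-3, lip-1 and spo-11. The window reaches 1000 bp upstream and 300 bp downstream of any annotated start of a protein-coding transcript, and a gene is called bound where it holds the summit of a peak that passed the authors' threshold on the irreproducible discovery rate (IDR), a measure of how well peak ranks match between replicates. The 6 genes are 15.8% of the list (95% Wilson interval 7.44 to 30.4), beside 23.9% of all protein-coding genes and 23.4% of autosomal ones, since no member is X-linked. The background share lies inside the list's interval. By role, 4 of 19 RNA regulators were bound (21.1%, 8.51 to 43.3), 1 of 11 meiotic genes (9.09%, 1.62 to 37.7), 1 of 2 signalling genes and 0 of 6 P granule genes (upper bound 39%). The intervals of the roles overlap each other and the background, so at these list sizes no order among the roles was detectable. Intervals cover counting error only, and 2 neighbouring genes with a common peak were counted as separate genes.

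**Figure D1:**
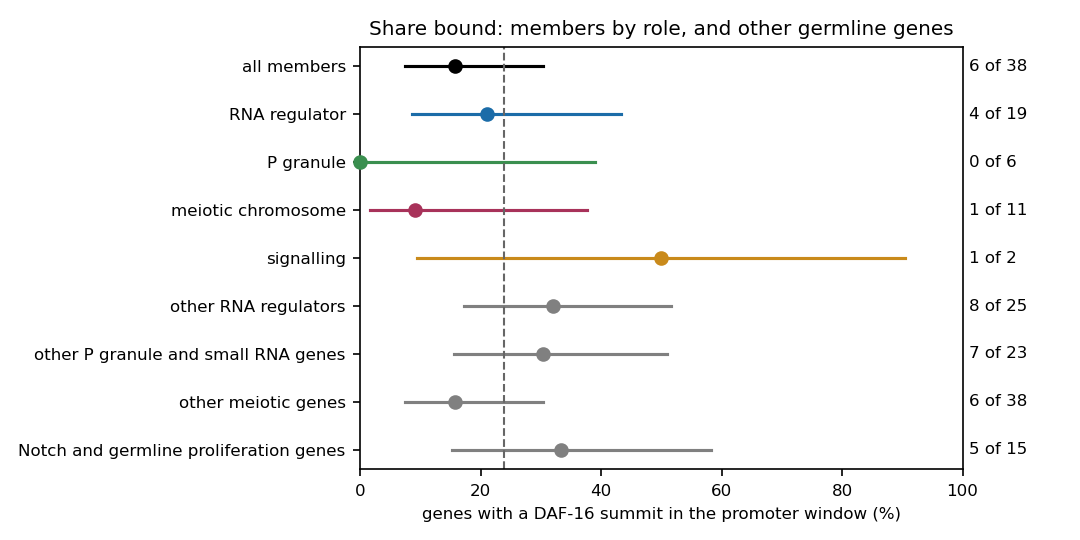
Share of genes with a DAF-16 summit in the promoter window (x axis, percent) for the members by role (coloured) and for other germline genes (grey), with 95% Wilson intervals as lines and counts at the right. The dashed line marks the 23.9% of all protein-coding genes, which every interval includes, and the P granule genes stand at 0 of 6.

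The peaks at these genes were of ordinary strength for the list. Signal here is the authors' own score for a peak, whose scale is not stated, and it ranks peaks within a list only. The median signal of the 6 member peaks was 94.9, beside 122 over the strongest window peak of all 4779 bound genes. The strongest, at gld-3, exceeded 74.6% of the 4693 peaks in promoter windows, and the weakest, at spo-11, exceeded 13.7%. All 6 summits lay upstream of the start, at a median of 506 bp, beside 229 bp over all bound genes, of which 90.4% had the summit upstream.

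**Figure D2:**
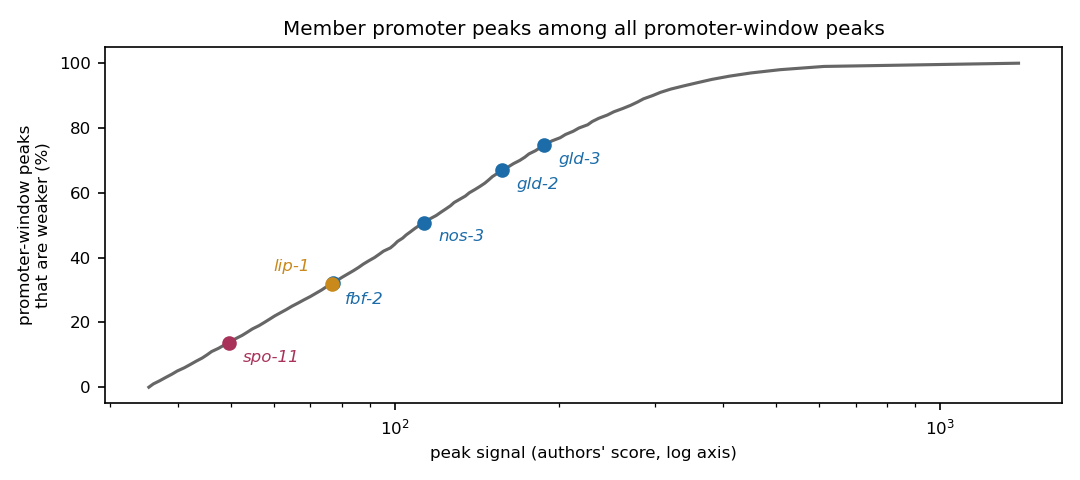
Percentage of promoter-window peaks that are weaker than a given signal (grey curve, log x axis), with the 6 member peaks marked by role. The RNA regulators gld-3, gld-2 and nos-3 stand at or above 50.8%, and fbf-2, lip-1 and spo-11 at or below 32.2%.

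The sequence at the strongest member peak, that of gld-3, carries the DAF-16 binding element, and that of lip-1 carries the DAF-16 associated element. They are shown with the peaks of fbf-2, which holds a GATA site, and spo-11, which holds none of the searched motifs. Each runs 5′ to 3′ on the strand of the named gene, from RefSeq sequence of WBcel235 (ce11), as the 75 bp on each side of the summit, cut short at fbf-2 where an annotated UTR of the neighbouring gene begins. Capitals mark matches to the binding element GTAAACA, the associated element CTTATCA or the GATA site TGATAA on either strand. Every match to the associated element also contains a GATA site.
gld-3, chrII:7132064-7132214, forward strand: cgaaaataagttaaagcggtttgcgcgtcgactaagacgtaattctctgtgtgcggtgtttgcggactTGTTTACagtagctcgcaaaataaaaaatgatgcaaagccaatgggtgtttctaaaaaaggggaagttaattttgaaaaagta
lip-1, chrIV:6842043-6842193, forward strand: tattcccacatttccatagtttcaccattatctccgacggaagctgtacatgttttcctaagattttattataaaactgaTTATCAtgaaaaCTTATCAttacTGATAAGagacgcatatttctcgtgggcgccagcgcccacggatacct
fbf-2, chrII:6091641-6091766, reverse strand: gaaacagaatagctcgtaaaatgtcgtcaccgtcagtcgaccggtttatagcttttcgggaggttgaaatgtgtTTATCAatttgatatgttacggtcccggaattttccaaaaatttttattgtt
spo-11, chrIV:11125295-11125445, reverse strand: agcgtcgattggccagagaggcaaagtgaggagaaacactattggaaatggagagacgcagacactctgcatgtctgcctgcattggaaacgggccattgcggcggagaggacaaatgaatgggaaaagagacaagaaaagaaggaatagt

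Among the RNA regulators, gld-3 (WBGene00001597, chromosome II, 7132643 to 7137522, forward strand) encodes a KH-domain protein that partners the poly(A) polymerase GLD-2. Its peak had a signal of 90.7 in replicate 1, 66.0 in replicate 2 and 188 in the IDR-thresholded list. Both replicates held a summit within 28 bp of the thresholded one, in intergenic sequence 504 bp upstream of the gld-3 start. The match to the binding element is centred 4 bp from that summit. The same peak lies 107 bp from the start of T07F8.4, a divergent neighbour with a gap of 610 bp, so the gld-3 peak is nearer to another gene than to gld-3.

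The poly(A) polymerase gene gld-2 (WBGene00001596, chromosome I, 6369748 to 6386194, forward strand) drives meiotic entry together with gld-3. Its peak had 50.2 in replicate 1, 66.3 in replicate 2 and 157 in the thresholded list. The summit at 6375819 lay inside the gene, in an intron 6071 bp from its outer start, and entered the window as 841 bp upstream of an internal start, 1 of 6 annotated. With outer starts only, gld-2 would not count as bound.

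For nos-3, a nanos-family gene that acts with the PUF proteins (WBGene00003785, chromosome II, 9746316 to 9750462, forward strand), the values were 71.7 in replicate 1, 33.6 in replicate 2 and 113 in the thresholded list. The summit lay 63 bp upstream of its nearest start, the closest of the 6, and the peak was shared with the window of Y53C12B.1, a divergent neighbour 237 bp away. The stem cell regulator fbf-2 (WBGene00001402, chromosome II, 6088863 to 6091480, reverse strand), a PUF-family repressor, had 47.7 in replicate 1, 17.2 in replicate 2 and 76.9 in the thresholded list. Its summit lay 236 bp upstream of fbf-2 but 51 bp from the start of nspg-3, the divergent neighbour. The GATA site at fbf-2 is centred 26 bp from the summit. Its close paralogue fbf-1 was not bound and had only a summit of 5.30 in the replicate 2 list, so the pair differed in this call. All 116 words of 36 bp around the summit at fbf-2 occur once in the genome, as they do at the other 5 member peaks. The words in the fbf-1 window were not counted, so whether reads were lost there was not tested.

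The phosphatase gene lip-1 (WBGene00003043, chromosome IV, 6842958 to 6846011, forward strand) restrains the ERK kinase MPK-1 in the germ line and is a known target of FBF repression. Its peak had 30.1 in replicate 1, 37.6 in replicate 2 and 76.6 in the thresholded list, 840 bp upstream of the nearest start. No other gene's window held it. The sequence has 2 matches to the associated element, the nearer centred 20 bp from the summit, and 3 GATA sites, the nearest at 8 bp. A stronger peak, with a signal of 239 and 122 and 120 in the replicates, lay 3601 bp upstream of lip-1, outside the window, and lip-1 was the gene with the nearest start. The Notch receptor gene glp-1, the switch between mitosis and meiosis, had no peak in its window in any list and none within 5 kb.

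Of the meiotic genes, spo-11 alone was bound (WBGene00004985, chromosome IV, 11123133 to 11124862, reverse strand), the gene of the topoisomerase-like enzyme that makes the meiotic breaks. Its peak was the weakest of the 6, with 18.96 in replicate 1, 17.7 in replicate 2 and 49.6 in the thresholded list, where the lowest signal is 35.4. The summit lay 508 bp upstream of spo-11, and 1161 bp separates the gene from swsn-4, a divergent neighbour that encodes a chromatin remodelling ATPase and whose window held the same peak.

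All 6 member peaks had a summit within 100 bp in both replicates, and within 50 bp as well, beside 78.8% of all promoter-window peaks at 100 bp and 59.9% at 50 bp. The replicate signals did not keep a common order. Replicate 1 was higher at gld-3, nos-3, fbf-2 and spo-11, and replicate 2 at gld-2 and lip-1, on scores whose scales may differ between the lists.

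**Figure D3:**
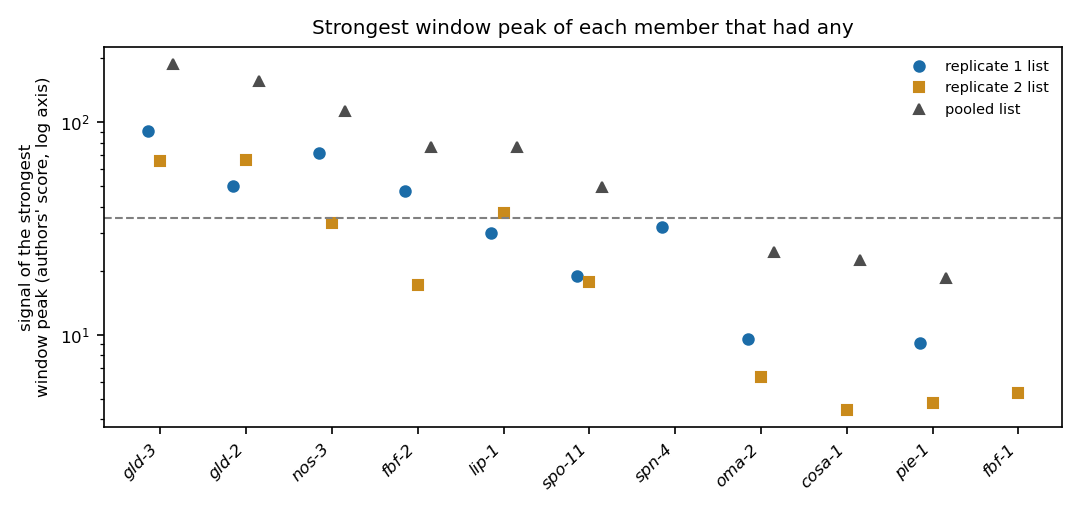
Signal of the strongest window peak (log y axis) of the 11 members that had one in any list, for replicate 1 (circles), replicate 2 (squares) and the pooled list (triangles). The dashed line is the lowest signal of the IDR-thresholded list, 35.4, and applies to the pooled values. The 6 bound members have all 3 symbols with the pooled one above the line, and the other 5 have at most 24.4 in the pooled list.

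Below the threshold, 5 unbound members (13.2% of the 38) had a summit in the window in a list that includes background regions. Of all protein-coding genes 16.5% were unbound with such a summit. The oocyte maturation gene oma-2, a CCCH zinc finger gene, had 9.56 in replicate 1, 6.34 in replicate 2 and 24.4 in the pooled list. These summits lay 533, 309 and 465 bp upstream, so the replicate summits were not counterparts within 100 bp. The crossover gene cosa-1 had 4.44 in replicate 2 and 22.4 in the pooled list, and none in replicate 1. Its strongest summit lay 121 bp upstream of the start in replicate 2 and 190 bp downstream in the pooled list. For pie-1, a repressor of transcription in the embryonic germ lineage, the values were 9.12, 4.76 and 18.5, from summits at different places in its windows. The RNA-binding protein gene spn-4 had a summit of 32.0 in replicate 1, 546 bp upstream, and none in replicate 2 or in the pooled list. The last was fbf-1. In all, 9 members had a pooled summit in the window (23.7%), beside 33.7% of all protein-coding genes. In the replicate 1 list 9 members had one, where the share of all genes was 29.3%, and in the replicate 2 list 10, where it was 35%.

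The other 27 members (71.1%) had no summit in the window in any of these lists, as had 59.5% of all protein-coding genes. Among RNA regulators these were 11 of 19. They include gld-1, which encodes a translational repressor, the nanos genes nos-1 and nos-2, and mex-3, a KH-domain repressor. The zinc finger genes mex-5 and mex-6, which set up polarity in the embryo, and oma-1 stood with them, as did puf-8, daz-1, a DAZ-family gene needed in oogenesis, and the sperm fate genes fog-1 and fog-3. All 6 P granule genes were without a summit, both for the scaffold proteins, pgl-1 and pgl-3, and for the Vasa-like helicases, glh-1, glh-2, glh-3 and glh-4. Of the meiotic genes 9 of 11 had none. These were the axis genes him-3, htp-1 and htp-3, the cohesin gene rec-8, the synaptonemal complex genes syp-1 and syp-2, the crossover gene msh-5 and the pairing centre genes him-8 and zim-1. Reads from close paralogues such as glh-1 and glh-2, or htp-1 and its copy htp-2, may have been lost in alignment, so a missing peak there is uncertain.

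Neighbours stood close to these genes. The median gap to the next protein-coding gene upstream was 529 bp, beside 1036 bp for all protein-coding genes, and 27 members (71.1%) had a gap under 1000 bp, beside 49.0%. A divergent neighbour within 2000 bp stood upstream of 17 of the 38 members, beside 5064 of all 19973 protein-coding genes. This layout was thus commoner in the list. Of the 17, 4 were bound (gld-3, fbf-2, nos-3 and spo-11), and each of these 4 shared its peak with that neighbour. Over all genes with such a neighbour the share bound was 34.5%. The peaks of gld-2 and lip-1 alone lay in no other gene's window. Thus 4 of 6 member peaks were shared (66.7%), beside 35.4% over all bound genes, and 2 of 6 were nearer to another gene's start, beside 18.8%. Sharing was not compared among genes with a divergent neighbour alone.

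Among the divergent pairs, members faced each other at 2 promoters. The P granule gene pgl-1 and the axis gene him-3 are 189 bp apart, and the cohesin gene rec-8 and mex-5 are 529 bp apart. None of these 4 genes had a summit in the window in any list. The synaptonemal complex gene syp-2 stands 243 bp from cox-16, htp-3 432 bp from tofu-4 and htp-1 371 bp from ZK616.5, and neither side of these pairs was bound. The pairing centre gene zim-1 is 1947 bp from T07G12.5, whose own window held a peak of 111, at 1870 bp from zim-1 and so beyond its window.

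The annotation used marks no operons, so a same-strand gene ending at most 500 bp upstream was taken as a possible operon partner. This held for 8 members, beside 3583 of all 19973 protein-coding genes. Of the 8, gld-2 was bound, beside 20.6% bound of all such genes. The head of the gld-2 chain, 3 genes up, is K04F10.1, whose window peak of 232 lay 4819 bp upstream of gld-2. The helicase gene glh-1 follows sacy-1, and the head of its chain is the synaptonemal complex gene syp-4, bound with a signal of 52.5, which had no counterpart in replicate 1. For glh-3, the neighbour mtk-1 (89.4) and the head vps-51 (59.5) were both bound, while glh-3 itself had no peak within 5 kb. The chain of the pairing centre gene him-8 runs through zim-3 to its head zim-2, and neither him-8 nor zim-2 was bound. The heads of the chains of gld-1, nos-1, oma-1 and daz-1, which are golg-5, R03D7.8, C09G9.5 and dhs-5, were not bound.

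Stronger peaks stood near some members, but beyond their windows. From 5 kb upstream to 5 kb downstream of the 38 genes lay 43 thresholded peaks, of which 6 are those above and 37 lay in no member window. Of the 37, 18 lay in the window of another gene, and 9 exceeded the gld-3 peak in signal. The strongest, with 394 (262 and 118 in the replicates), lay 1687 bp past the 3′ end of rec-8 and in the window of W02A2.9. Past the 3′ end of gld-3, at 1729 bp, stood a peak of 336 (171 and 129) in no gene's window. An intron of T07G12.5 held one of 323 (161 and 165), 3555 bp upstream of zim-1. Around htp-1 lay 6 peaks, the most of any member, and the strongest (285) was at the fatty acid elongase gene elo-6. A peak of 283 past oma-1 was in the window of rad-54.L2. Upstream of glh-4, at 3379 and 3180 bp, stood peaks of 195 and 37.0, the first matched within 100 bp in replicate 2 only and the second in replicate 1 only. No thresholded peak lay within 5 kb of 19 members (50%), beside 45.7% of all protein-coding genes, and among them were glp-1, mex-3, mex-5, mex-6, pgl-1, pgl-3, him-3, syp-1 and syp-2.

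**Figure D4:**
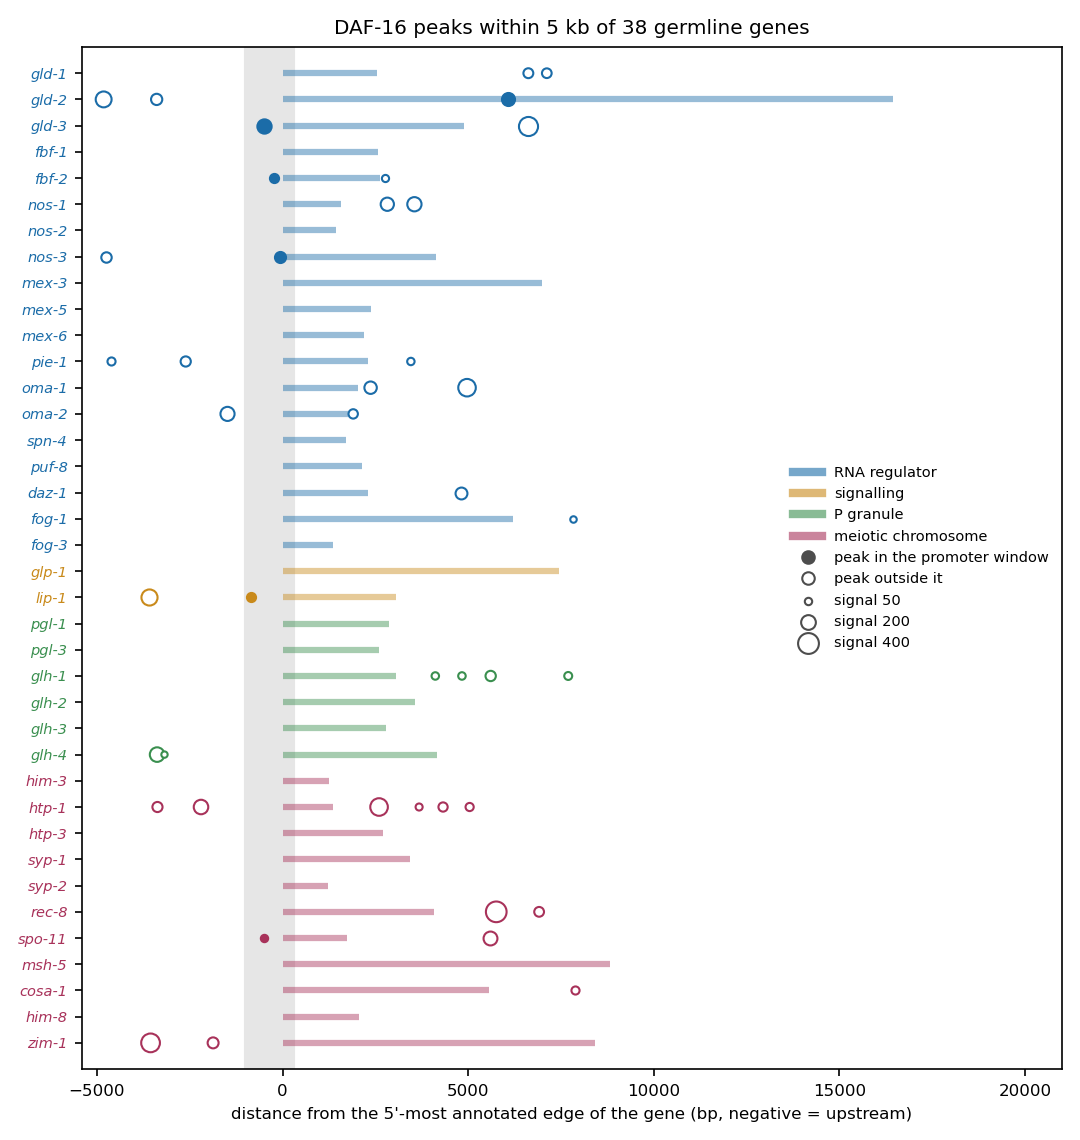
IDR-thresholded DAF-16 peaks from 5 kb upstream to 5 kb downstream of each of the 38 members, as distance from the outer annotated start (x axis, bp). Bars are genes coloured by role, circles are summits with an area in proportion to signal, and the grey band is the window at the outer start. Filled circles mark the 6 peaks in a member window, that of gld-2 at an internal start, and most open circles lie past the 3′ ends.

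Motif matches were counted at the 6 member peaks and over all promoter-window peaks. The binding element stood at 1 of 6 (gld-3), beside 9.06% of all promoter-window peaks, and the associated element at 1 of 6 (lip-1), beside 21.1%. A GATA site stood at 3 of 6 (gld-2, fbf-2 and lip-1), beside 40.2%. The E-box CACGTG, beside 5.77%, and the E2F-type core GCGCGAA, beside 1.92%, stood at none. The search covered both strands and the 75 bp on each side of a summit, and no match means only that these letters are not in that stretch.

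The wider germ line was described by 4 further lists, none of whose genes is a member, with 101 of 104 genes found by name. Of the 101, 26 were bound (25.7%, 18.2 to 35.0), beside 23.9% of all genes. Other RNA regulators, a list that also held the sex determination genes tra-1 and tra-2, had 8 of 25, led by larp-1 (signal 490), atx-2 (394), etr-1 (230) and the splicing helicase gene mog-4 (197). Other P granule and small RNA genes had 7 of 23, led by the helicase gene drh-3 (164, without a counterpart in replicate 2), the DEAD-box gene cgh-1 (144), the Argonaute gene csr-1 (138) and ifet-1 (130). Other meiotic genes had 6 of 38, led by the repair gene rad-50 (339), the cohesin loader gene scc-2 (221), xnd-1 (142) and brc-1 (109), the worm BRCA1. Notch and proliferation genes had 5 of 15, led by the Notch effector gene lag-1 (138) and followed by dpl-1 (92.4), the presenilin gene sel-12 (71.0) and efl-1 (70.8), of which dpl-1 and efl-1 encode the partners of an E2F factor. Larp-1, rad-50, atx-2, etr-1, scc-2 and mog-4 thus had peaks stronger than any promoter peak of the 38. The strongest of those, at gld-3, exceeded 74.6% of all promoter-window peaks, so peaks above it were not rare. The 26 bound genes also gave more peaks to rank than the 6 bound members. Several of these genes are also used outside the germ line.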

How the data were processed

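The peak lists on build ce11 were used as deposited. Per the file descriptions, each replicate has a list that mixes peaks with background regions, the pooled replicates have another, and these lists gave the optimal list at an IDR threshold, with a control among the inputs. The sources used here name no aligner, peak caller or IDR threshold, and the read depth is unknown. The deposited signal of each peak is a score with no stated scale. The deposited −log10 q-value was the same for all thresholded peaks and was not used. The lists hold 16146 (replicate 1), 21378 (replicate 2), 22466 (pooled) and 8777 (thresholded) peaks, 8748 of the last on nuclear chromosomes.

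Summits were joined to starts of protein-coding transcripts in Ensembl release 115, after peak ends were checked against chromosome lengths. Counterparts were summits within 100 bp. The members and lists were chosen with earlier results of these data known, so no test was run. Every member is accounted for, and of each wider list the 4 strongest bound genes are named. Close copies were left out as an alternative chosen after seeing the data. As a check of the code, 200 simulated summits were placed inside the windows of genes picked from the 19973, and 200 were found. The search used the same window bounds, so this says nothing about sensitivity to real binding. Scripts ran under Python 3.11.15 with pandas 2.3.3, numpy 2.4.6, matplotlib 3.10.9 and scipy 1.17.1.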

Additional observations from a re-analysis of the deposited data

How the results depend on the processing

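The count of 6 bound members was 2 in a window narrowed to 500 bp upstream and 100 bp downstream (fbf-2 and nos-3, beside 18.9% of all genes) and 3 in the stronger 50% of peaks (gld-2, gld-3 and nos-3, beside 13.5%). It was 8 with 2000 bp upstream (beside 29.1%), 5 with outer starts only (22.3%), 4 with nearest starts only (19.8%) and 9 with the pooled list (33.7%). It was 6 without replicate 1 (23.7%) and 7 without replicate 2 (22.7%, spn-4 gained). These 2 shares of all genes lie below those of the full lists with background regions, 35% in replicate 2 and 29.3% in replicate 1. In those full lists 10 members had a window summit in replicate 2 and 9 in replicate 1. The counts of 6 and 7 thus depend on how far down each list is read. In replicate 2 the peaks of spo-11 and fbf-2 ranked only 8147 and 8266. Without the close copies fbf-1, fbf-2, glh-1, glh-2 and htp-1 it was 5 of 33 (15.2%), beside the main 23.9%. The share of all genes bound thus moved with the setting too, and the role counts below stand beside the same shares. The 4 RNA regulators were 2 with the 500 bp window and 2 with nearest starts. The 1 signalling gene became 0 with the 500 bp window and 0 in the stronger 50%. The 1 meiotic gene became 0 under both, and 2 with the 2000 bp window (beside 29.1% of all genes) and 2 with the pooled list (33.7%). P granule genes stayed at 0 under all 8 settings tried for them. The 26 of the wider lists (25.7%, beside 23.9% of all genes) were 16 with the 500 bp window (15.8%, beside 18.9%). They were 16 in the stronger 50% (15.8%, beside 13.5%) and 42 with the pooled list (41.6%, beside 33.7%). With nearest starts they were 19 (18.8%, beside 19.8%). The wider lists thus stood above or below the share of all genes depending on the setting. Of the 38 members, 10 changed their call under at least 1 of the same settings. The motif counts at the member peaks were the same within 150 bp, but the shares over all promoter-window peaks rose. They became 11.8% for the binding element, 26.8% for the associated element and 52.8% for GATA. For the E-box the share became 8.76%, and for the E2F-type core 2.66%. GATA at 3 of 6 member peaks (50%) thus stood above the share of all peaks within 75 bp and below it within 150 bp. With no read counts in the lists, depth cannot be weighed here, and a peak under the threshold is not shown to be absent.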

Other observations

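The members are spread unevenly over the chromosomes. Chromosome IV held 11, of which 2 were bound, beside 23.7% of its 3281 protein-coding genes. Chromosome I held 10 with 1 bound, beside 24.1% of 2878, and chromosome II held 9 with 3 bound, beside 22.1% of 3449. Chromosome V held 5 with 0 bound, beside 19.9% of 4994, and chromosome III held 3 with 0 bound, beside 30.5% of 2640. The X chromosome, with 2731 genes of which 27.4% were bound, held 0 members. The member counts are small, and a difference between chromosomes was not tested. Over all protein-coding genes the share bound ran from 19.9% on chromosome V to 30.5% on chromosome III, the chromosome of glp-1, pie-1 and cosa-1. Among unbound members, 13 of 32 (40.6%) had a thresholded peak within 5 kb, beside 39.9% of all unbound protein-coding genes.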
